A study of Mus musculus with 12 samples.

Results

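A group of 7 genes that carry or take up lipids, *Fabp1*, *Fabp3*, *Fabp4*, *Fabp5*, *Fabp7*, *Cd36* and *Apom*, was followed in whole mouse kidneys at postnatal day 3 (P3). They were chosen by name, as 7 of the 24062 gene symbols counted. The choice named *Fabp7* as lower and *Apom* as higher in the mutants of both mouse models of the study. LIN28B OE kidneys came from C57BL/6 *LIN28B* Wt1 mice, in which Wt1-Cre directed a doxycycline-inducible human *LIN28B* transgene to Wt1-expressing cells, and a single-day pulse of doxycycline in the drinking water before birth induced it. Their controls were C57BL/6 littermates labelled wild type. *let-7* KO kidneys lacked *let-7a1*, *let-7d* and *let-7f1* constitutively, on a mixed CD1 and C57BL/6 background, and their controls were wild type littermates of that background. Each of the 4 groups held 3 kidneys from 2 litters, 12 kidneys in all. In each group kidneys 1 and 2 were from litter 1 and kidney 3 alone was from litter 2. Because values in both models chose the genes, their differences between mutant and control kidneys are given as descriptions, and nothing is read from how many of them pass a threshold.

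Fatty acid binding proteins are small cytosolic proteins that hold long-chain fatty acids and related lipids and move them between membranes, stores and the nucleus. Each has a tissue in which it is best known: FABP1 in liver, FABP3 in heart and muscle, FABP4 in adipocytes and capillary endothelium, FABP5 in skin and FABP7 in the glia of the developing brain. CD36 is a membrane receptor that takes up fatty acids and is abundant in adipocytes, macrophages and capillary endothelium. Apolipoprotein M (APOM) is made mainly by hepatocytes and kidney tubule cells and carries sphingosine 1-phosphate on high density lipoprotein (HDL). LIN28B blocks the maturation of let-7 microRNAs, which repress messenger RNAs that pair with their seed.

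The microRNAs removed in the *let-7* KO are printed to show that they share 1 seed, bases 2 to 8, in capitals. They are the RefSeq mature 5p forms on the minus strand of chromosome 13 in GRCm38.p6, from 48538239 to 48538260 for let-7a, 48536078 to 48536099 for let-7d and 48537889 to 48537910 for let-7f.
let-7a-5p: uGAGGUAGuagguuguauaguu
let-7d-5p: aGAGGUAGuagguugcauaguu
let-7f-5p: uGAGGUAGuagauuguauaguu
The annotated 3′ UTRs of the longest protein-coding transcripts of the 7 genes, from 69 bases in *Fabp1* to 1660 bases in *Cd36*, did not hold CTACCTC, the complement of that seed. They also lacked the site that pairs with bases 2 to 7 and has an A opposite base 1, which reads TACCTCA. Of 19279 annotated genes, 15.3% held at least 1 of these sites. This absence says only that those letters are not in those UTRs.

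The 7 genes lie on 6 chromosomes (GENCODE M21, GRCm38, the build named mm10 by the submitters). *Fabp4* (chromosome 3, 10204088 to 10208576, minus strand) and *Fabp5* (chromosome 3, 10012548 to 10016607, plus strand) belong to a run of 5 Fabp-type genes within 289 kb, with *Pmp2*, *Fabp9* and *Fabp12*. *Fabp7* lies at chromosome 10, 57784881 to 57788450, on the plus strand, beside the sphingomyelinase-like gene *Smpdl3a*. *Apom* is at chromosome 17, 35128997 to 35132050, on the minus strand, 142 bases from *D17H6S53E*. *Cd36* spans 107112 bases of the minus strand of chromosome 5, and *Fabp1* lies on chromosome 6. *Fabp3* (chromosome 4, 130308595 to 130315463, plus strand) overlaps *Zcchc17* and *Gm10570* on the other strand. The library kit did not mark strand, so reads from the overlap cannot be told apart, and *Fabp3* and *Fabp5* also have processed pseudogenes that may share reads.

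A RefSeq promoter window was found for 5 of the 7 genes, from 250 bases before to 50 bases after the start. AGGTCA, the core of nuclear receptor sites, was searched on both strands and was present in 16.3% of 32851 such windows. It was present in *Fabp7*, *Cd36* and *Fabp1*. The first 2 are shown because both genes were lower in LIN28B OE kidneys, with the match, read on the other strand as TGACCT, in capitals. For *Fabp7* the stretch is chr10:57784742-57784767, plus strand, and the match begins 171 bases before the start. For *Cd36* it is chr5:17836109-17836134, minus strand, 228 bases before a start that lies inside the gene's longest annotated span.
Fabp7: gggaggatctTGACCTactccgctaa
Cd36: ctgcactttaTGACCTgagattttca
The TATA box was searched as TATAAA and was in 13.6% of windows, and the E-box as CACGTG in 7.15%. The *Fabp1* window held the TATA letters 30 bases before its start and the nuclear receptor core at 67 and 9 bases before it. The windows of *Apom* and *Fabp3* held none of these motifs. Matches are descriptions of the letters only.

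Libraries held between 39926235 and 61872736 counts, and a gene with 3 counts stood at 0.0485 to 0.0751 CPM before normalization. All levels here are in CPM (a gene's reads relative to its library's size) after normalization. *Hmga2*, a known let-7 target, was at 155.9 to 207 CPM in LIN28B OE kidneys and 12.36 to 16.37 in their controls, and at 12.27 to 31.64 in *let-7* KO kidneys and 7.715 to 10.45 in WT. The mouse *Lin28b* row had 0 to 33 counts in LIN28B controls and 71 to 232 in LIN28B OE kidneys, and reads from the human transgene were not counted separately. *Mirlet7d* had 0 counts in all 3 *let-7* KO kidneys and 0 to 35 in WT kidneys. Proximal tubule markers were present in every kidney, with 14 genes summing to between 1689 and 6674 CPM. In whole kidneys, fewer cells of a type and less RNA per cell cannot be told apart. The labels do not say whether kidneys of a litter came from separate animals, and the paper calls the samples biological replicates. In litter 1, Y-linked RNA summed to 156.4 and 0.0561 CPM in LIN28B OE kidneys 1 and 2. It summed to 0.017 and 140.8 CPM in WT and 0.0496 and 149.2 in KO kidneys 1 and 2. Each of these pairs thus came from separate animals. In LIN28B control kidneys 1 and 2 it was 0.0673 and 0.161 CPM, which cannot decide the question. The p-values below measure only the spread between these samples.

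Compared per kilobase of transcript, the most abundant of the 7 were *Fabp4*, with a median level of 458.7 CPM per kb over the 12 kidneys, and *Fabp3*, with 379.7. Their ranges, 259.7 to 698 and 234.7 to 728.7, overlapped almost fully. *Apom* (172.4) and *Fabp5* (140.7) came next and also overlapped, with 75.99 to 322.1 and 85.67 to 275.7 CPM per kb. *Cd36* (8.039) and *Fabp7* (3.566) lay below every value of these 4 genes, with highest kidneys at 17.13 and 16.93. *Fabp1* was lowest, with a median of 0.3843 CPM per kb.

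**Figure D1:**
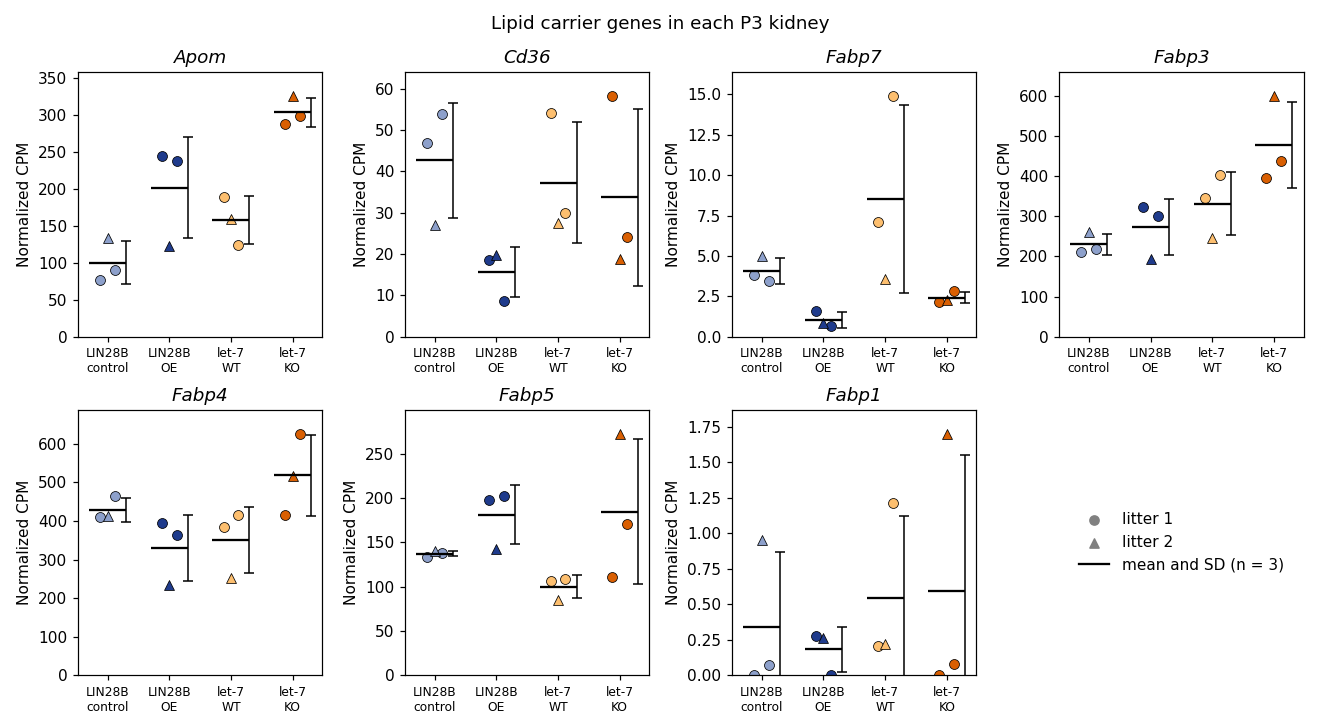
Normalized CPM of each gene (y axes, from 0, each on its own scale) in each kidney of the 4 groups (x axis); circles are litter 1 and triangles litter 2, lines are group means and bars SD (n = 3). *Fabp7* was lower in every mutant kidney than in every control of its model, whereas for *Apom* LIN28B OE kidney 3, at 122.9, lay below control kidney 3, at 133.7.

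*Fabp7*, whose product binds polyunsaturated fatty acids, had the largest fold change of the 7 genes in both models. It stood at 3.801, 3.442 and 5.007 CPM in control kidneys 1 to 3 and at 1.601, 0.673 and 0.823 CPM in LIN28B OE kidneys. All LIN28B OE kidneys were below all controls, and the fitted level was 3.94-fold lower (log2 fold change −1.98, SE 0.596). With *let-7* it was at 7.071, 14.9 and 3.581 CPM in WT and at 2.166, 2.834 and 2.284 CPM in KO kidneys. The KO kidneys lay close together and below all WT kidneys, which themselves spread over 4-fold, and the fitted level was 3.55-fold lower (log2 fold change −1.83, SE 0.581). These levels rest on 36 to 811 counts per kidney. Within litters, LIN28B OE over control was 0.314 in litter 1 and 0.164 in litter 2, and KO over WT was 0.228 and 0.638. Without WT kidney 2, the highest, the *let-7* log2 fold change was −1.15 (SE 0.609).

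The best known source of *Fabp7*, glia, was measured with 9 Schwann cell and glia markers. Their sum was 18.73 to 34.43 CPM in LIN28B controls, 20.47 to 25.77 in LIN28B OE, 12.97 to 35.71 in WT and 11.28 to 30.31 in KO kidneys. None of the 7 markers tested in either model passed p below 0.01. *Erbb3*, a receptor that Schwann cells need and that epithelia also express, was at 17.62, 12.48 and 6.016 CPM in LIN28B controls, 2.696, 0.393 and 9.135 in LIN28B OE, 14.86, 5.162 and 20.37 in WT and 14.22, 2.535 and 1.448 in KO kidneys. Its group means were lower in both mutants, as those of *Fabp7* were, with overlap in each model. *Sox10*, a Schwann cell marker of this list that not all glia express, was at 0 to 1.346 CPM over the 12 kidneys. The part of glial RNA in the *Fabp7* level was not tested.

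*Apom* was at 76.97, 90.93 and 133.7 CPM in LIN28B controls and at 244.8, 238.1 and 122.9 CPM in LIN28B OE kidneys. OE kidneys 1 and 2 were far above the controls and OE kidney 3 was not, so the groups overlapped, at a fitted 2.01-fold higher level (log2 fold change 1.01, SE 0.279). With transcript length as a covariate, described below, the log2 fold change was 0.57 (SE 0.0922). Without control kidneys 1 and 2, which left only control kidney 3, it was 0.60. By litter, LIN28B OE over control was 2.88 in litter 1 and 0.919 in litter 2. Litter 2 held only kidney 3 of each group, so litter and single kidney cannot be told apart. *Apom* in the *let-7* experiment was at 189.9, 125 and 159.5 CPM in WT and at 287.9, 298.8 and 326.3 CPM in KO kidneys. The lowest KO kidney was here above the highest WT kidney, and the fitted level was 1.9-fold higher (log2 fold change 0.93, SE 0.188). KO over WT was 1.86 in litter 1 and 2.05 in litter 2, so the difference had the same direction in each.

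*Apom* is best known in the kidney from proximal tubules. The sum of 14 proximal tubule markers was 4420 to 4569 CPM in LIN28B controls and 1689 to 2278 in LIN28B OE kidneys, with 10 of 14 markers lower at p below 0.01. In the *let-7* experiment the sum was 5805 to 6674 CPM in WT and 4194 to 6064 in KO kidneys, with 4 of 14 markers lower at the same threshold. The median log2 fold change of the 14 markers was −0.28, against −0.02 over all genes. *Gatm* (1235 in WT and 636.6 CPM in KO) and *Slc22a8* (158.1 and 102.8) were among those with lower means in KO kidneys. The sums overlapped, and *Kap* (530.2 in WT and 915.5 CPM in KO), *Aqp1* (319.4 and 373.2) and *Slc3a1* (114.1 and 136.9) had higher means in KO kidneys without being called. The part of proximal tubule RNA in the *Apom* level was not tested. Liver markers, from the other main source of *Apom*, summed to 251.3 to 312.4 CPM in LIN28B controls and 178.7 to 380.4 in LIN28B OE kidneys, and to 101.3 to 168.9 in WT and 144.9 to 361.8 in KO kidneys. The markers were uneven within these sums. In any kidney *Alb* was at most 5.821 CPM, *Ahsg* at most 2.388 and *Serpina1a* at most 19.24, while *Afp* was at 37.77 to 215. *Apoa2* was at most 10.47 CPM and *Fgb* at most 10.78. The rest of each sum came from *Ttr* and *Tat*, whose levels are not given here. None of the 7 liver markers tested passed in either model, and the part of liver RNA in the *Apom* level was not tested.

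*Cd36* was lower in LIN28B OE kidneys, at 18.66, 8.712 and 19.72 CPM beside 46.94, 53.85 and 27.05 CPM in controls. The groups did not overlap, and the fitted level was 2.7-fold lower (log2 fold change −1.44, SE 0.352). LIN28B OE over control was 0.272 in litter 1 and 0.729 in litter 2. Among *let-7* kidneys *Cd36* was at 54.01, 29.98 and 27.6 CPM in WT and at 58.21, 24.05 and 18.86 CPM in KO kidneys. Each group held 1 high kidney from litter 1, the groups overlapped, and the log2 fold change was −0.15 (SE 0.427).

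Adipocyte and brown fat markers had a lower median sum in LIN28B OE than in control kidneys, with overlap. The sum of the 10 markers was 94.18 and 115.4 CPM in control kidneys 1 and 2, 15.48 in control kidney 3, and 19.13, 0.168 and 7.637 in LIN28B OE kidneys. Control kidneys 1 and 2 had the most of both this sum and *Cd36*, and OE kidney 2 the least. OE kidney 1 had a higher sum than control kidney 3 but less *Cd36*. *Adipoq*, the adipocyte hormone adiponectin, was at 22.35, 25.61 and 2.589 CPM in the controls and at 3.481, 0 and 2.765 in LIN28B OE kidneys. With the marker sum as a covariate, chosen after the data were seen, the *Cd36* log2 fold change was −0.48 (SE 0.299). Without control kidneys 1 and 2, which left only control kidney 3, it was −0.78. In the *let-7* experiment the sum was at most 1.68 CPM in WT kidneys and 0.182, 16.16 and 1.281 CPM in KO kidneys, and the 2 kidneys with the most *Cd36*, WT 1 and KO 1, had sums of 0.699 and 0.182. The 10 endothelial markers, from another main source of *Cd36*, summed to 1167 to 1188 CPM in LIN28B controls and 812 to 902.4 in LIN28B OE kidneys, with 5 of 10 lower at p below 0.01. They summed to 1019 to 1190 CPM in WT and 1048 to 1400 in KO kidneys, with none called. Macrophage markers summed to 186.4 to 224.9 CPM in LIN28B controls and 138.4 to 204.9 in LIN28B OE kidneys, with 2 of 9 lower, and to 141.2 to 259.4 in WT and 128.6 to 155.4 in KO kidneys, with none called. The parts of adipocyte, endothelial and macrophage RNA in the *Cd36* level were not tested.

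**Figure D2:**
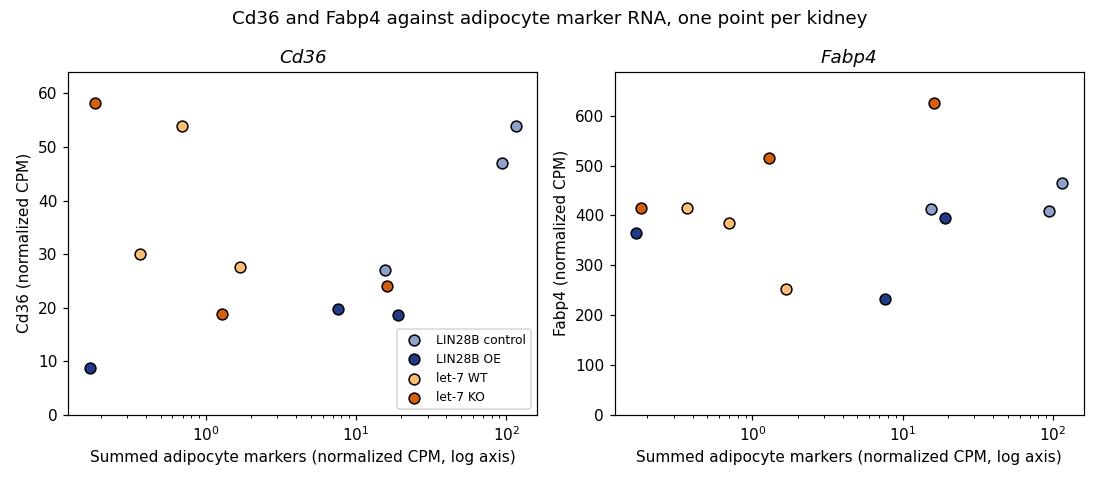
*Cd36* (left) and *Fabp4* (right) in normalized CPM (y axes, from 0) against the summed CPM of 10 adipocyte and brown fat markers (x axis, log scale), 1 point per kidney. LIN28B control kidneys 1 and 2 stand apart at 94.18 and 115.4 CPM of markers, and *Fabp4* ranged from 232.7 to 625.4 CPM over the 12 kidneys.

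*Fabp4*, known as the adipocyte fatty acid binding protein, went in opposite directions in the models. It was at 409.7, 464.7 and 412.3 CPM in LIN28B controls and at 394.4, 364.6 and 232.7 CPM in LIN28B OE kidneys, all of them lower (log2 fold change −0.38, SE 0.185). It was at 385.2, 414.4 and 251.8 CPM in WT and at 414.5, 625.4 and 516.1 CPM in KO kidneys (log2 fold change 0.54, SE 0.224). The groups did not overlap, but KO kidney 1 and WT kidney 2 were 0.1 CPM apart. The kidneys with the lowest adipocyte marker sums, LIN28B OE kidney 2 (0.168 CPM) and KO kidney 1 (0.182), had 364.6 and 414.5 CPM of *Fabp4*, and those with the highest, LIN28B control kidneys 2 and 1, had 464.7 and 409.7. The part of adipocyte RNA in the *Fabp4* level was not tested. Without LIN28B OE kidney 3 the LIN28B log2 fold change was −0.18 (SE 0.0999), and without WT kidney 3 that of *let-7* was 0.35 (SE 0.204). The sums of endothelial markers, the other known source, are given above.

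*Fabp5*, the epidermal form, was higher in the mutants of both models. It was at 133.9, 137.7 and 140.1 CPM in LIN28B controls and at 197.7, 202.5 and 142.9 CPM in LIN28B OE kidneys (log2 fold change 0.40, SE 0.154). It was at 106.1, 108.7 and 84.55 CPM in WT and at 110.7, 171.1 and 272.1 CPM in KO kidneys (log2 fold change 0.86, SE 0.283). Neither pair of groups overlapped, though OE kidney 3 and KO kidney 1 were within 3 CPM of their highest control. Without KO kidney 3 the *let-7* log2 fold change was 0.49 (SE 0.229).

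*Fabp3*, the heart and muscle form, was at 211, 219 and 260.6 CPM in LIN28B controls and at 323.2, 301.8 and 193.2 CPM in LIN28B OE kidneys (log2 fold change 0.24, SE 0.191). It was at 344.7, 403.5 and 247.1 CPM in WT and at 395.5, 437.7 and 599.7 CPM in KO kidneys (log2 fold change 0.51, SE 0.225). The groups overlapped in both models. Striated muscle markers summed to at most 8.799 CPM in any kidney, and none passed in either model.

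*Fabp1*, the liver form, was close to its counting limit and erratic. Raw counts were 0, 3 and 50 in LIN28B controls, 17, 0 and 16 in LIN28B OE, 12, 66 and 13 in WT and 0, 4 and 61 in KO kidneys. Its log2 fold changes of −0.89 (SE 1.85) and 0.07 (SE 1.79) were smaller than their errors, and the depth could not show a difference.

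All 7 genes passed the filter on low counts. At p below 0.01, the study's threshold, 3 of the 7 were called in LIN28B OE kidneys (*Fabp7* and *Cd36* lower, *Apom* higher), beside 7.33% of the 15793 genes tested. In *let-7* KO kidneys 2 were called (*Fabp7* lower, *Apom* higher), beside 2.73% of 15500. None passed an adjusted p below 0.05 (edgeR's quasi-likelihood test, Benjamini-Hochberg), as 1.23% and 0.0194% of genes did. The counts over all genes, 1158 and 423, ran from 515 (without control kidney 2) to 2509 (without OE kidney 3) and from 162 (without KO kidney 2) to 1296 (without KO kidney 1) when 1 kidney was left out. Groups did not overlap for 4 of the 7 in each model, *Fabp4*, *Fabp5* and *Fabp7* in both, *Cd36* with LIN28B OE and *Apom* with *let-7* KO. The same held for 23.8% and 16.7% of all genes tested. Since the genes were chosen with these differences, their counts carry no evidence beyond the description.

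**Figure D3:**
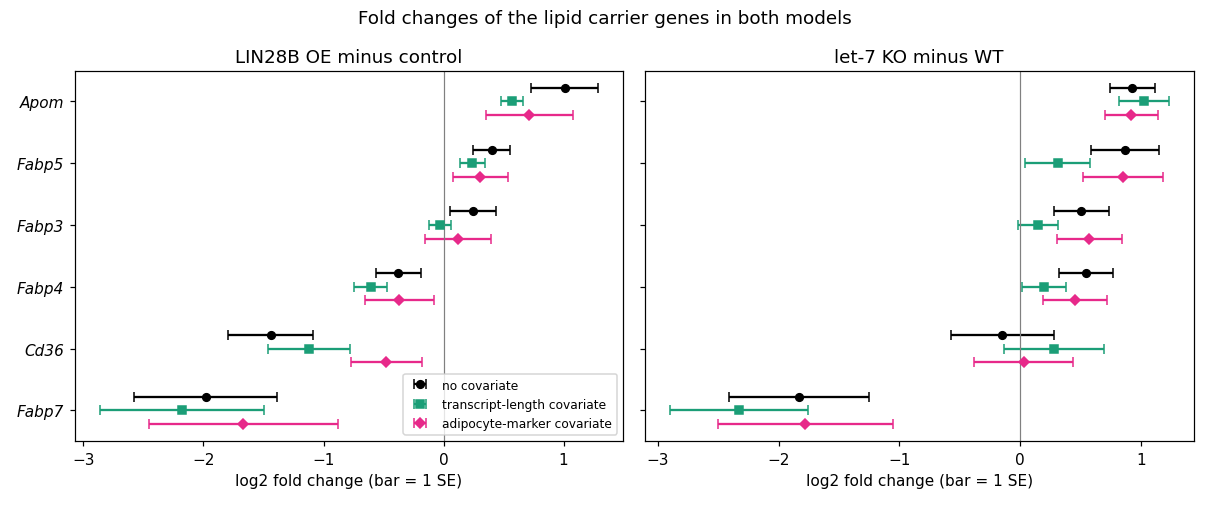
log2 fold changes (x axes; bars are 1 SE) of 6 genes in LIN28B OE against control (left) and *let-7* KO against WT (right), with no covariate, with each kidney's transcript-length slope and with its summed adipocyte markers as a covariate. *Fabp7* and *Apom* keep their side of 0 in each fit, *Apom* in LIN28B OE moves from 1.01 to 0.57 with transcript length, *Cd36* in LIN28B OE moves from −1.44 to −0.48 with the adipocyte markers, and *Fabp3* and *Fabp5* in *let-7* KO move toward 0 with transcript length.

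The longest transcripts of the 5 *Fabp* genes have 553 to 987 bases, that of *Apom* has 1013 and that of *Cd36* has 3399. The libraries differed in how much they held of short transcripts. The median deviation of 1097 genes with transcripts under 1000 bases from their mean over all kidneys, on the log2 scale, ran from −0.309 in WT kidney 3 to 0.467 in KO kidney 3. It was −0.246, −0.212 and −0.0345 in LIN28B controls, 0.226, 0.189 and −0.288 in LIN28B OE, −0.152, 0.0998 and −0.309 in WT and −0.0829, 0.276 and 0.467 in KO kidneys. The OE kidneys with high *Apom*, *Fabp3* and *Fabp5*, kidneys 1 and 2, were thus those high in short transcripts, and OE kidney 3 was lower than they were in both. Genes with short transcripts had a median log2 fold change of 0.28 in LIN28B OE and 0.39 in *let-7* KO kidneys, beside −0.03 and −0.05 in other genes.

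A fit with each kidney's slope of deviation on transcript length, chosen after the data were seen, left *Fabp7* at −2.18 and −2.33 in the LIN28B and *let-7* models. *Apom* was at 0.57 and 1.02 in this fit, and *Cd36* at −1.12 and 0.28. *Fabp3* went to −0.03 and 0.15, *Fabp5* to 0.24 and 0.31, and *Fabp4* to −0.61 and 0.20. The LIN28B value of *Apom* thus became smaller by over 1.5 times, as did the *let-7* values of *Fabp3*, *Fabp4* and *Fabp5* and the LIN28B values of *Fabp3*, which turned sign, and *Fabp5*, while the LIN28B value of *Fabp4* became more negative by over 1.5 times.

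**Figure D4:**
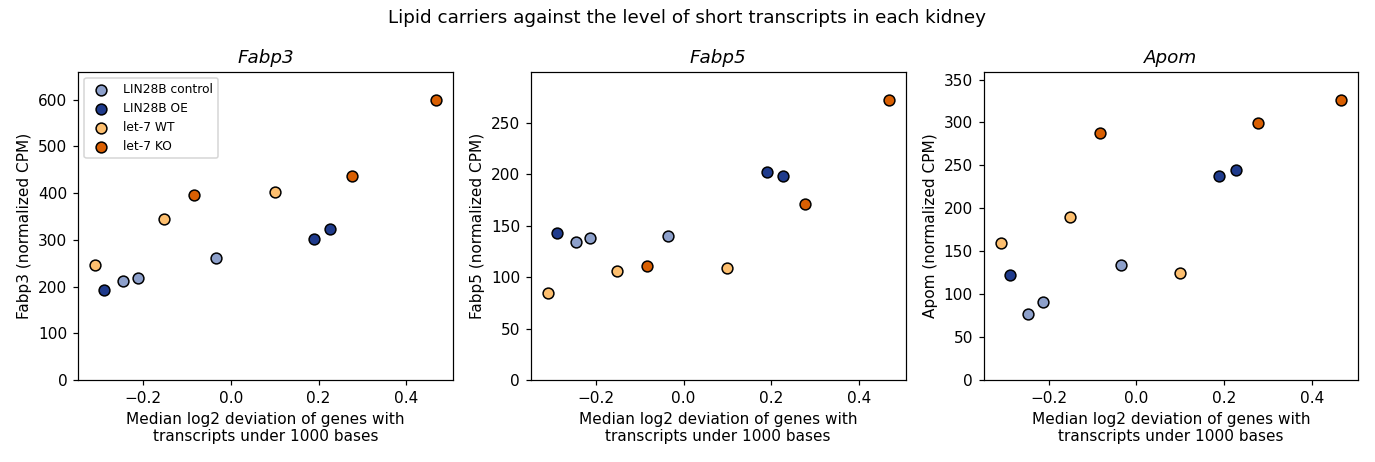
*Fabp3*, *Fabp5* and *Apom* in normalized CPM (y axes, from 0) against the median log2 deviation of 1097 genes with transcripts under 1000 bases (x axes), 1 point per kidney. KO kidney 3, at 0.467, had the most *Fabp3* (599.7 CPM), *Fabp5* (272.1) and *Apom* (326.3), and *Apom* was at 287.9 CPM in KO kidney 1, where the deviation was −0.0829.

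The difference between the models was tested in 1 fit of all 12 kidneys, as the LIN28B effect minus the *let-7* effect. *Fabp4* was the only one of the 7 past p below 0.01, with a log2 difference of −0.94 (SE 0.315, 95% interval −1.61 to −0.268, adjusted p = 0.628 in edgeR's quasi-likelihood test), beside 1.55% of 16598 genes. Its call was lost when any 1 of 9 of the 12 kidneys was left out, with −0.742, without LIN28B OE kidney 3, as the value nearest 0. It was kept without LIN28B OE kidney 1, WT kidney 2 or KO kidney 1. For *Cd36* the difference was −1.30 (95% interval −2.61 to 0.0104, edgeR adjusted p = 0.796), not past the threshold. *Fabp7* differed by −0.17, with an interval of −1.84 to 1.5, and *Apom* by 0.06, with −0.711 to 0.834. *Fabp3* and *Fabp5* differed by −0.28 (−0.96 to 0.397) and −0.49 (−1.25 to 0.272).

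The control groups were compared to learn what the 7 genes did without either mutation. *Fabp5* was lower in *let-7* WT than in LIN28B control kidneys, with a log2 difference of −0.46 (SE 0.137, past p below 0.01, edgeR adjusted p = 0.175) and no overlap, where 4.79% of 15850 genes were called and 20% did not overlap. *Apom* was higher by 0.65 (SE 0.222, edgeR adjusted p = 0.254), *Fabp3* by 0.52 (edgeR adjusted p = 0.259) and *Fabp7* by 1.05 (SE 0.499, edgeR adjusted p = 0.427), none past the threshold. *Fabp4* and *Cd36* differed by −0.30 (edgeR adjusted p = 0.554) and −0.20 (edgeR adjusted p = 0.856). The *Fabp5* call was lost without any of LIN28B control kidneys 1, 2 and 3 or WT kidneys 1 and 3. With the adipocyte markers as a covariate, whose sums did not overlap between these groups (15.48 CPM or more in LIN28B controls, at most 1.68 in WT), none of the 7 was called and *Apom*, *Fabp3*, *Fabp7* and *Cd36* changed sign. Strain, litters and library numbers differ together between these groups and cannot be told apart.

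Other lipid genes, 121 in 6 lists, were tested beside the 7. In LIN28B OE kidneys 13 fell and 2 rose of 109 tested at p below 0.01, where 4.08% of all genes fell and 3.25% rose. The median log2 fold change was −0.37, against −0.02 over all genes. In *let-7* KO kidneys 6 fell and 2 rose of 101 tested, where 1.63% fell and 1.1% rose, with a median of −0.07 against −0.02. At an adjusted p below 0.05 there were 3 in LIN28B OE (edgeR) and 0 in *let-7* KO kidneys. The *let-7* count of 8 was 5 when litters were a replicate block. The LIN28B count of 15 became 6 with the adipocyte markers as a covariate, and these markers include *Plin1*, *Cidea* and *Cidec* of the lists. It was 9 without control kidney 2 and 24 without LIN28B OE kidney 3. Over all genes 515 and 2509 were called in the fits without these kidneys, beside 1158 with all kidneys. The lipid count became 4 for *let-7* with transcript length as a covariate, and also 4 without any 1 of WT kidneys 1 and 3 and KO kidney 2. Over all genes 162 were called without KO kidney 2, beside 423 with all kidneys. Whether these changes were particular to lipid genes was not tested.

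Genes called higher were all in the list of other intracellular lipid binding proteins, relatives of the Fabp family. *Crabp1* and *Crabp2* carry retinoic acid in the cytosol. *Crabp2* was at 6.424, 9.981 and 9.804 CPM in LIN28B controls and 28.45, 42.89 and 28.94 CPM in LIN28B OE kidneys. All 3 OE kidneys were above the controls, and it rose by a log2 fold change of 1.94 (SE 0.265, edgeR adjusted p = 0.0115). *Crabp1* rose in both models, by 1.36 (SE 0.328, edgeR adjusted p = 0.0768) in LIN28B OE and by 1.95 (SE 0.466, edgeR adjusted p = 0.358) in *let-7* KO kidneys. Of the 10 genes of this list 5 were tested with LIN28B OE and 4 with *let-7* KO, with 2 called in each. The remaining Fabp-type genes *Fabp6*, *Fabp9*, *Fabp12* and *Pmp2* had at most 21 counts in any kidney, and *Fabp2* at most 94.

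Genes of fatty acid uptake and activation held 6 of the 13 that fell in LIN28B OE kidneys, of 19 tested. *Acsl1*, which activates long-chain fatty acids as acyl-CoA, was at 155.3, 152.6 and 102.9 CPM in controls and at 47.93, 31.76 and 44.49 CPM in LIN28B OE kidneys. It was at 165, 107 and 172.9 CPM in WT and at 81, 60.83 and 78.99 CPM in KO kidneys. It fell in both, without overlap, by 1.72 (SE 0.22, edgeR adjusted p = 0.00836) and by 1.02 (SE 0.224, edgeR adjusted p = 0.325) on the log2 scale, and was the 1 gene of this list called in *let-7* KO kidneys. *Slc27a2*, a fatty acid transporter of the proximal tubule, fell by 1.14 (SE 0.137, edgeR adjusted p = 0.0071) in LIN28B OE kidneys, from 339.7 to 447.7 CPM in controls to 176.1 to 180.8. *Lpl*, lipoprotein lipase, and *Scp2*, a sterol carrier, fell there by 0.75 (SE 0.168) and 0.53 (SE 0.132).

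Among lipid droplet genes 4 of 23 fell in LIN28B OE and 2 of 21 in *let-7* KO kidneys. *Dgat2*, which makes triglyceride, fell in both, by 0.68 (SE 0.167) and 0.58 (SE 0.163) on the log2 scale. *Plin2*, the coat protein of lipid droplets, fell in *let-7* KO kidneys by 0.71 (SE 0.166), from 146.6 to 164.7 CPM in WT to 88.15 to 106.7. In LIN28B OE kidneys *Fitm1* and *Pnpla2* fell by 1.002 (SE 0.275) and 0.69 (SE 0.19), and *Cidec*, an adipocyte gene that is also among the adipocyte markers, fell by 3.93 (SE 1.11).

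Of the partners of *Apom*, the HDL and apolipoprotein genes held 1 that fell of 22 tested in LIN28B OE kidneys, *Clu* (clusterin), by 0.54 (SE 0.122), and none of 20 in *let-7* KO kidneys. Of the transcription factors and cofactors that sense lipids or act in tubules, 1 of 24 tested fell in LIN28B OE kidneys and 2 of 23 in *let-7* KO kidneys, where *Ppargc1a*, a coactivator of fatty acid oxidation genes, fell by 0.59 (SE 0.174). Genes that make, degrade or bind sphingosine 1-phosphate, the ligand that APOM carries, held *Sgpp1*, a sphingosine 1-phosphate phosphatase, which fell in both models and was the 1 gene called of 16 and of 15 tested. It was at 88.26, 73.35 and 58.75 CPM in LIN28B controls and 28.11, 24.32 and 42.09 in LIN28B OE kidneys, and at 108.9, 96.38 and 135.4 CPM in WT and 86.59, 48.4 and 48.41 in KO kidneys. Neither pair overlapped, and the log2 fold changes were −1.22 (SE 0.245) and −0.90 (SE 0.263). The sums of proximal tubule markers, given above, were lower in all LIN28B OE than in all control kidneys and overlapped between KO and WT kidneys, and their part in these lists was not tested. Cap mesenchyme markers, of the nephron progenitors, summed to 67.3 to 84.62 CPM in LIN28B controls and 343.2 to 406.7 in LIN28B OE kidneys, with 7 of 7 called higher, and to 52.92 to 53.53 in WT and 76.57 to 122.1 in KO kidneys, with none called. Their part in these lists, *Crabp1* and *Crabp2* included, was not tested.

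**Figure D5:**
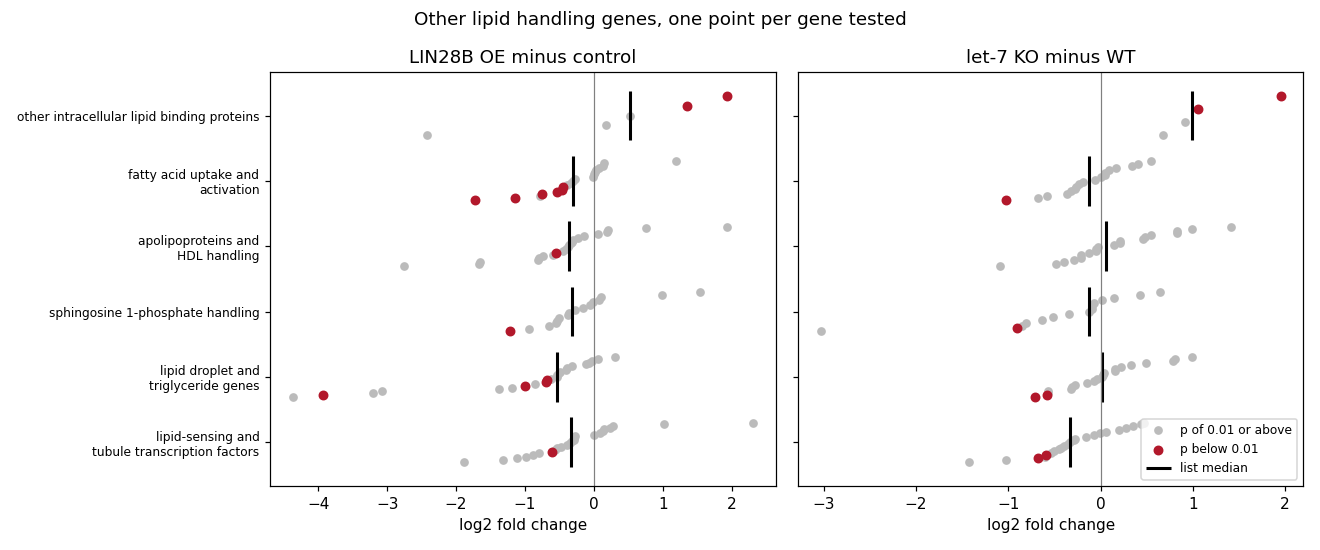
log2 fold change (x axes) of each tested gene of 6 lipid lists (y axis) in LIN28B OE against control (left) and *let-7* KO against WT (right); red points have p below 0.01 and black lines are list medians. The called genes of intracellular lipid binding proteins lie to the right of 0 and all called genes of the other 5 lists to the left.

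Among the 12 kidneys, after each group's mean was removed on the log2 scale, Pearson's r was 0.804 for *Fabp3* and *Fabp5*, 0.774 for *Fabp3* and *Fabp4* and 0.611 for *Fabp4* and *Fabp5*. *Fabp7* had an r of 0.627 with *Fabp3*, 0.634 with *Fabp4* and 0.28 with *Fabp5*. *Fabp7* and *Apom* had an r of −0.00335, and *Cd36* and *Fabp5* −0.614. All these points share library depth and the length bias given above. Of 14063 genes, *Cd36* was most like *Clec14a* (r = 0.961), *Fabp7* most like *Ly86* (0.948) and *Apom* most like *Bcas2* (0.935). *Fabp3* was most like *2810001G20Rik* (0.992), *Fabp4* most like *Ap1s1* (0.968) and *Fabp5* most like *Tsfm* (0.977). Each r is the highest of 14063 over only 12 kidneys, so it is high by the way it was picked.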

How the data were processed

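Raw read counts per gene symbol were deposited by the authors, 1 table for each of 12 kidneys. RNA was made into libraries with a SMARTer Ultra Low kit. The submitters' processing notes name cutadapt, TopHat2 2.0.9, Bowtie2, SAMtools 0.1.19, HTSeq and mm10. Samples were grouped from their labels. For each model, its 6 kidneys were fitted in edgeR 4.0.16 with R 4.3.3 (filterByExpr with minimum count 10 and total 15, TMM, quasi-likelihood test), with p below 0.01 as the call and Benjamini-Hochberg adjusted p over all genes tested. The SE is the absolute log2 fold change over the square root of F. CPM in the text were TMM-normalized over all kidneys, except those given for a gene with 3 counts. Replicates differed by more than sampling noise (chi-square per gene at least 30.8). Kidneys with Y-linked RNA numbered 1, 1, 2 and 2 of 3 in LIN28B control, LIN28B OE, WT and KO. The labels give the same litter numbers to mutant and control kidneys of a model, taken here as shared litters; deviations correlated with −0.109 (LIN28B) and −0.0248 (*let-7*) within litters and 0.135 and 0.0306 between them. Alternatives used DESeq2 1.42.0, other scalings, filters and covariates.

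The genes, lipid lists and marker lists were chosen with earlier results of these data known. From each lipid list up to 4 called genes per direction were named, by smallest p. Some called genes of these lists are not reported here by name. The most alike genes have the highest Pearson's r over kidneys, at a mean of at least 1 CPM and with 0.5 CPM added. Marker lists not named in the report were adrenal (1 of 4 called higher with OE, none with KO) and erythroid (1 of 3 called lower with OE, none with KO). The scripts were tested on simulated counts.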

Additional observations from a re-analysis of the deposited data

Results flagged for a closer look

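*Fabp4* had effects of opposite sign in the models: a log2 difference of −0.941 between the LIN28B and *let-7* effects (edgeR adjusted p = 0.628), with all 3 LIN28B OE kidneys below their controls and all 3 *let-7* KO kidneys above theirs. Its loss of the call without single kidneys is given above. *Slc27a2* fell in LIN28B OE kidneys by more than in *let-7* KO kidneys, with a log2 difference between the effects of −0.893 (SE 0.265, edgeR adjusted p = 0.541). For *Clu* the difference was −0.707 (SE 0.192, edgeR adjusted p = 0.443), with 265.1 to 318.3 CPM in LIN28B OE and 404.6 to 427.9 in control kidneys, and 367.7 to 449.2 in KO and 334.8 to 411.9 in WT kidneys. *Slc27a2* and *Clu* were compared here because they were already called in LIN28B OE kidneys. That choice favoured a larger effect there, so their differences are descriptions only. Over all genes, 1.55% of 16598 passed p below 0.01 in this test. None of the 3 passed an adjusted p below 0.05. Groups of 3 kidneys are too small for a test of single outlying kidneys.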

How the results depend on the processing

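Of 449 values of the 7 genes under alternatives, 388 kept their direction and their side of the threshold or stayed within the spread. With p adjusted, the count of lipid genes called was 3 in LIN28B OE and 0 in *let-7* KO kidneys, and of the 7 genes 0 between control groups and 0 between models. With litter as a replicate block, which pairs kidneys of a litter, the *let-7* lipid count was 5 in place of 8, and the block changed no other count by over 1.5 times but turned the *Fabp1* log2 fold changes to 0.687 (LIN28B) and −2.5 (*let-7*). Transcript length gave lipid counts of 23 and 4, and adipocyte markers 6 and 4. Leaving out each kidney gave 9 to 24 and 4 to 12, while counts over all genes ran from 515 to 2509 and from 162 to 1296. Between control groups, where 1 of the 7 genes was called, the count was 2 with at least 1 CPM in every kidney, 3 with DESeq2, 0 in one fit of 12 kidneys, 0 with the Y-linked covariate, 2 with transcript length, 0 with adipocyte markers and 0 to 2 leaving out kidneys. There *Cd36* turned to 0.0913 with the Y-linked covariate, and ranged from −0.57 to 0.00127 without single kidneys. Between models, where 1 was called, it was 0 with RLE, 0 with upper-quartile scaling, 0 with adipocyte markers, 0 without both adipocyte-rich controls, and 0 to 1 leaving out kidneys. *Fabp7* there turned to 0.0615 and *Apom* to −0.163 with adipocyte markers, *Apom* to −0.345 without both controls, and without single kidneys they ranged from −0.848 to 0.196 and −0.1 to 0.322. Without single kidneys *Fabp7* ranged from −2.44 to −1.73 in LIN28B OE and from −2.2 to −1.15 in *let-7* KO kidneys. The causes were not tested. With adipocyte markers as a covariate between control groups, which do not overlap in those markers, *Fabp3* turned to −0.378 (SE 0.445), *Fabp7* to −1.13 (SE 1.51), *Cd36* to 1.27 (SE 0.923) and *Apom* to −0.26 (SE 0.544). With 1 kidney left in an arm, that kidney is assumed to vary like the others.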
